A study of Drosophila melanogaster with 6 samples.

Results

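The control transfection of Drosophila S2 cells was described from 2 of the 6 Affymetrix arrays in the series, the replicates titled as control transfection. The other 4 arrays measured cells given pAc-Clk, a plasmid for expressing the clock transcription factor Clk, at 10 ng on 2 arrays and at 30 and 100 ng on 1 array each, and they enter no result given here. All groups were S2 cells from which total RNA was taken 48 h after transfection, and per the design text the control cells received an empty vector. S2 is an established line grown from late fly embryos and widely used as a model of the macrophage-like blood cell, the plasmatocyte. The labels give neither the subline nor the medium, and they do not say that the replicates were separate cultures, so the spread between the 2 arrays may be technical.

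Fly blood cells, the haemocytes, are of 3 kinds. Plasmatocytes engulf microbes and dying cells and lay down basement membrane, crystal cells carry the enzymes of melanisation, and lamellocytes wrap parasites. The GATA factor Srp specifies blood, and the Toll and Imd pathways switch on antimicrobial peptide genes through NF-kappaB factors.

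Signal is given on a log2 scale, read as the natural log of the deposited intensity, so a step of 1 is a doubling. A gene was called above background when its probe set exceeded the highest Tag control probe set, a probe set for a sequence not expected in fly RNA, on both arrays. That limit was 2.96 on control array 1 and 2.97 on control array 2. Genes above it were called dim under a mean of 6, moderate from 6 to under 10, and bright from 10 up. Probe sets differ in how strongly they bind their target, so these classes are coarse, and the order of levels between genes is not an order of transcript abundance.

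Of 11982 genes with at least 1 probe set of their own, 7628 (63.7%) were above background on both arrays and 3895 (32.5%) were at or under it on both. Another 459 genes (3.83%) exceeded the limit on 1 array only. There were 2272 bright genes (19.0%), 3445 moderate genes (28.8%) and 1911 dim genes (15.9%), and bright and moderate genes together made up 47.7%. The distribution had a pair of peaks with a trough between them. The bin from 2 to 3 held 4209 genes and that from 9 to 10 held 1251, against 300 genes from 5 to 6. The dim class reached into the shoulder of the lower peak. Of 27 probe sets for bacterial transcripts, 4 on array 1 and 3 on array 2 also exceeded the Tag limit, up to 3.66 and 3.67. Levels near 3 are therefore uncertain, and the groups below are described mainly by their bright and moderate members. At the limit itself, CG17261 at 3.03 and 2.97 and metro at 2.96 and 3.01 were the nearest above it with grn, whereas CG12869 at 2.96 and 2.96 and ltl at 2.95 and 2.97 were just outside.

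**Figure D1:**
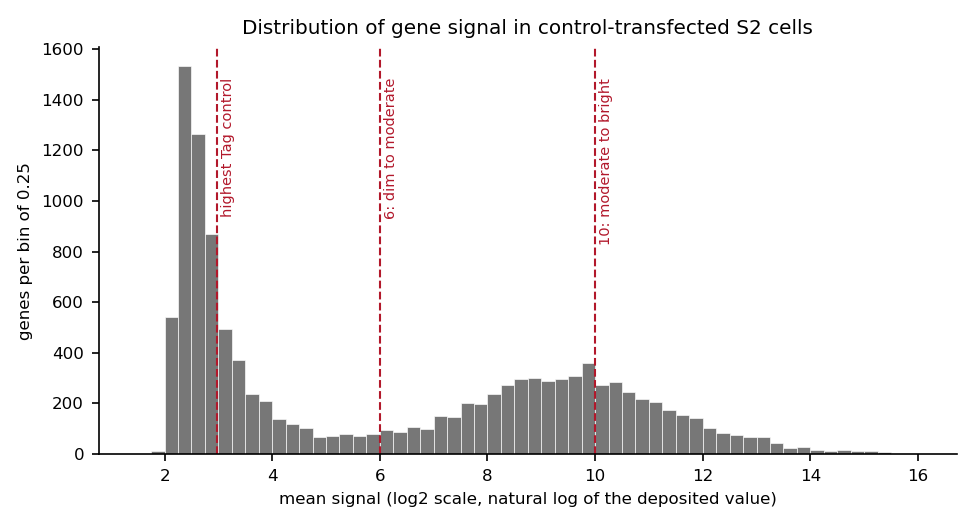
Number of genes per bin of 0.25 in mean signal over the 2 control arrays (horizontal axis, log2 scale). Dashed lines mark the highest Tag control and the limits of 6 and 10. The lower peak lies between 2 and 3 and the upper one between 9 and 10, with 300 genes in the trough from 5 to 6.

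The first list described holds 14 genes of haemocyte identity. It was chosen with earlier results of these data known, so it is no independent check of the line's labelled identity. Of the 14 genes, 12 were bright (85.7%, against 19.0% of all genes), 1 exceeded background on 1 array and 1 lay under it. Their median was 12.29 against 5.08 over all genes. The blood GATA factor srp had 12.89 and 13.09 on the 2 arrays (12.99 ± 0.14, SD, n = 2), and its cofactor ush had 11.61 and 11.83. Both arrays were far above the Tag limit for each. Surface and secreted products of plasmatocytes were at the same end of the scale. Hml, the clotting protein hemolectin, had 12.54 and 12.53, and He, the haemocyte surface glycoprotein hemese, had 13.62 and 13.74. Nplp2, a neuropeptide-like precursor, had 15.29 and 15.24 and stood among the 25 brightest genes. Pxn, the matrix peroxidase peroxidasin, had 14.05 and 14.22 on its brightest probe set, while its other probe set averaged 6.55. The 2 genes of the list that were not bright encode the glial cells missing factors, which act in early plasmatocyte and glial fate. The first, gcm, had 2.58 and 3.24, on either side of the limit. The other, gcm2, had 2.93 and 2.94, just under it. In a culture measured in bulk, a transcript present in few cells and one present at a low level in all cells cannot be told apart.

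The receptors by which plasmatocytes bind and engulf particles divided within families. Of 22 engulfment and scavenger receptor genes with a probe set of their own, 11 were bright and 3 moderate (63.6% together, against 47.7% of all genes). The Nimrod receptors for bacteria were among them: eater had 12.80 and 12.78, and NimC1 had 12.09 and 11.99. Their relatives NimC2 at 2.77 and 2.92 and NimC3 at 2.31 and 2.30 were at background, so the NimC genes spanned the whole range. The scavenger receptor family was split likewise. Sr-CI had 11.90 and 11.96, while Sr-CIII averaged 5.84, Sr-CIV averaged 5.31 and Sr-CII lay at background with 2.58 and 2.59. Receptors for dying cells were bright, with drpr at 11.57 and 11.48 and the CD36 relative crq at 11.64 and 11.81. The thioester protein gene Tep4 had 12.73 and 12.83, whereas Tep3 had 2.45 and 2.43. Dscam1, an immunoglobulin superfamily receptor with many splice forms, had 10.65 and 10.70 on its brightest probe set and averaged 2.55 on its other one.

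Genes of the other blood cell types were mixed. Among 4 crystal cell genes none was bright, against 19.0% of all genes, and so few genes do not set the group apart. Above background were 3 of the 4 (75.0%, against 63.7% of all genes). The Runx factor lz, which specifies crystal cells, had 2.90 and 2.95 and lay just under background on both arrays. PPO1, a prophenoloxidase of crystal cells, had 3.76 and 3.54, whereas its relative PPO2 was moderate at 7.05 and 6.88. The lamellocyte prophenoloxidase PPO3 was moderate too, with 8.65 and 8.71. Of the other lamellocyte genes, the surface protein gene atilla had 6.24 and 6.46 and the integrin gene ItgaPS4 had 4.19 and 4.44. The beta integrin gene mys, at 12.16 and 12.53, and the kinase gene msn, at 10.94 and 11.14, were bright, but both are also used outside lamellocytes. Of 9 dopa and melanin enzyme genes 3 were moderate, none was bright, and 3 were at background, against 47.7% moderate or bright over all genes. The moderate ones were PPO2, PPO3 and the laccase gene stw. On the brightest of its 3 probe sets stw had 9.90 and 10.07, and on the dimmest it averaged 3.13. The tyrosine hydroxylase gene ple averaged 3.29, and Ddc, for dopa decarboxylase, had 2.86 and 2.48.

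The genes of the basement membrane formed a bright group. Of 16 matrix genes, 11 were bright and 3 moderate, and their median was 12.92 against 5.08 over all genes. The collagen IV genes vkg and Col4a1 had 14.57 and 14.66, and 14.44 and 14.67. SPARC, a collagen-binding matrix protein gene, had 14.80 and 14.70. All 3 were near the top of the scale on both arrays. The laminin chain genes LanA, LanB1 and LanB2 averaged 13.84, 13.14 and 13.20. Enzymes that modify collagen were bright too, with the prolyl hydroxylase gene PH4alphaEFB at 12.80 and 12.62 and the lysyl hydroxylase gene Plod at 10.40 and 10.17. The remaining components were lower. Ndg, the nidogen gene that links laminin and collagen networks, had 3.06 and 3.08, which is dim and inside the uncertain range near the limit. The perlecan gene trol reached 5.74 and 6.38 on the brightest of its 8 probe sets and 2.30 on the dimmest. Mmp2, a matrix metalloproteinase gene, had 9.22 and 9.68 on its brightest probe set and averaged 3.23 on its other one. Timp, the gene of its inhibitor, averaged 4.17 and 2.91 on its probe sets.

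**Figure D2:**
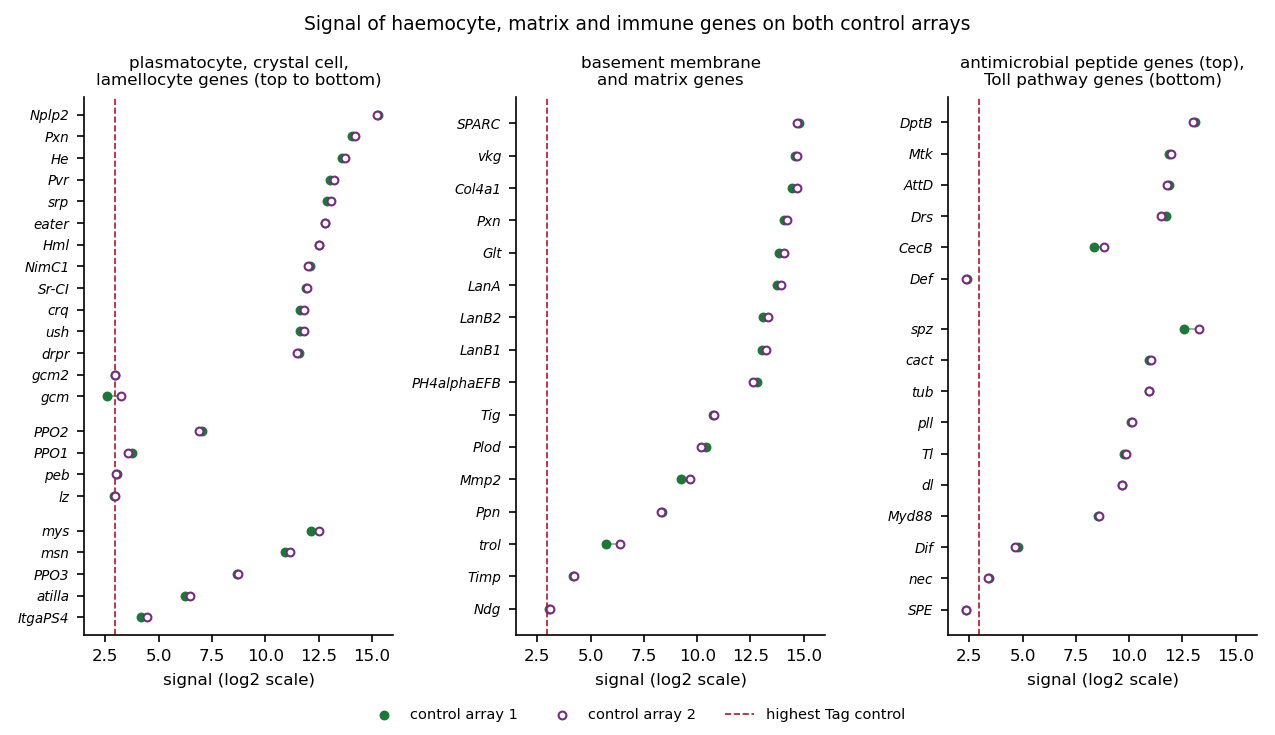
Signal on control array 1 (filled) and control array 2 (open) for the blood cell, matrix, antimicrobial peptide and Toll pathway genes (horizontal axes, log2 scale; 1 row per gene, brightest probe set). Nplp2 at 15.29 and 15.24 heads the haemocyte genes, and lz, gcm2, Def and SPE lie at or under the highest Tag control.

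Antimicrobial peptide genes were bright in these cells, which received a control transfection only. Of 6 such genes with a probe set of their own, 4 were bright and 1 moderate, against 19.0% and 28.8% of all genes. The Diptericin gene DptB had 13.11 and 13.02 (13.07 ± 0.06, SD, n = 2), the Metchnikowin gene Mtk 11.89 and 11.95, the Attacin gene AttD 11.87 and 11.77, and the Drosomycin gene Drs 11.75 and 11.50. All 4 exceeded the 90th percentile of all genes, which was 11.06. The Cecropin gene CecB was moderate at 8.33 and 8.81. The Defensin gene Def had 2.39 and 2.35 and was at background on both arrays. The labels name no immune stimulus, and no array of untransfected cells was analysed here, so the part of the transfection in these levels cannot be told apart from the level of the line.

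Components of both NF-kappaB pathways were above background. In the Imd pathway, which answers mainly to Gram-negative bacteria, 10 of 11 genes were moderate or bright, against 47.7% of all genes. The factor gene Rel had 12.25 and 12.10, the IKK subunit gene key 12.21 and 12.25, and the adaptor gene imd 8.22 and 8.17. The intracellular peptidoglycan sensor gene PGRP-LE was the only dim member, at 5.59 and 5.57. In the Toll pathway 7 of 10 genes were moderate or bright, set against the same 47.7%. The ligand gene spz had 12.58 and 13.26. On their brightest probe sets the inhibitor gene cact had 10.92 and 11.04 and the receptor gene Tl 9.78 and 9.86. Their other probe sets averaged 6.29 for cact and 4.27 for Tl. The pathway's pair of transcription factors differed in class. The gene dl, for Dorsal, was moderate at 9.68 and 9.68, and Dif, the factor used in fat body immunity, was dim at 4.79 and 4.62. SPE, the protease that activates the ligand Spz, was at background with 2.33 and 2.35. Among 6 Toll family receptors, Tl and Tollo were moderate, while Toll-7, Toll-4 and Tehao were at background. Over all genes 47.7% were moderate or bright and 32.5% at background, and this family was added after its values had been seen. Of 7 peptidoglycan recognition protein genes, the inhibitor gene PGRP-LF was bright at 10.23 and 10.17 and PGRP-SB2 was at background.

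In the JAK-STAT, JNK, Ras-MAPK, PI3K and Tor pathways the intracellular components that could be assessed were at moderate or bright levels. All 11 JNK genes, all 9 Ras-MAPK genes and all 11 PI3K and Tor genes with a probe set of their own were moderate or bright, against 47.7% of all genes. The lists held 12, 14 and 18 genes, and the remaining ones were not assessed. In the JNK pathway, a stress kinase cascade, the kinase gene bsk had 11.55 and 11.74, the Fos gene kay 12.51 and 12.48, and the TNF ligand gene egr 12.39 and 12.42. These levels are from the brightest probe set of each gene. The dimmest averaged 5.98 for bsk, 5.12 for kay and 11.14 for egr. The feedback phosphatase gene puc, a transcriptional target of the pathway, had 10.21 and 10.27. In the JAK-STAT pathway the transcription factor gene Stat92E had 12.60 and 12.62 and the receptor gene dome 7.71 and 7.99. Its ligand genes were near the limit, with upd1 at 2.94 and 3.21 and upd2 at 3.05 and 3.04. Of 9 Hippo pathway genes 8 were moderate or bright, among them the coactivator gene yki at 11.13 and 11.29. The exception was ds, an atypical cadherin that acts between neighbouring epithelial cells, at 2.79 and 2.80.

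Receptor tyrosine kinases and their ligands were lower as a group. Of 23 genes, 3 were bright and 5 moderate (34.8% together, against 47.7% of all genes), and their median was 3.13. Pvr, the PDGF and VEGF receptor gene of haemocytes, had 13.05 and 13.21, and its ligand gene Pvf2 had 9.92 and 10.30. Those of the other Pvr ligands, Pvf1 and Pvf3, averaged 3.11 and 3.13, near the limit. The insulin receptor gene InR was moderate at 7.47 and 7.61. A further 6 receptor genes were at background on both arrays: Egfr (2.58 and 2.57), the FGF receptor genes htl (2.55 and 2.57) and btl (2.18 and 2.19), tor (2.39 and 2.40), Alk (2.33 and 2.34) and sev (2.17 and 2.15). Ligand genes for some of these receptors were above it. The Egfr ligand gene spi had 12.26 and 12.40, and its relatives grk and Krn were moderate. The FGF gene bnl, whose receptor is btl, had 7.01 and 7.31 on the brightest of its 3 probe sets. On the dimmest it averaged 3.60.

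Morphogen pathways also had members on both sides of the limit. Moderate or bright genes numbered 7 of 10 in the Hedgehog, 10 of 14 in the BMP and activin, and 7 of 10 in the Notch pathway, against 47.7% of all genes. In the Hedgehog pathway the ligand gene hh (2.75 and 2.70) and ci, the gene of the pathway's transcription factor (2.76 and 2.50), were at background. The membrane protein gene smo had 10.22 and 10.43, the kinesin-like scaffold gene cos 10.45 and 10.63, and the inhibitor gene Su(fu) 10.15 and 9.98. The receptor gene ptc, itself a target of the pathway, was dim at 5.61 and 6.20. Among BMP and activin genes, the ligand gene gbb had 11.29 and 11.20 while dpp had 6.09 and 6.23, and the type II receptor gene put had 10.57 and 10.65 while wit had 2.53 and 2.53. The signal transducers Smox, for activin, and Mad, for BMP, averaged 10.28 and 9.17. In the Notch pathway, the processing enzymes Psn (11.24 and 11.11) and kuz (8.09 and 8.96) were above background, and fng, the glycosyltransferase that tunes ligand choice, averaged 4.19. Notch itself and its ligands were not analysed here, because the annotation used pairs no probe set with them alone. Only 4 of 18 listed Wnt genes were represented, of which wls, needed to secrete Wnt proteins, was bright at 10.95 and 11.04.

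**Figure D3:**
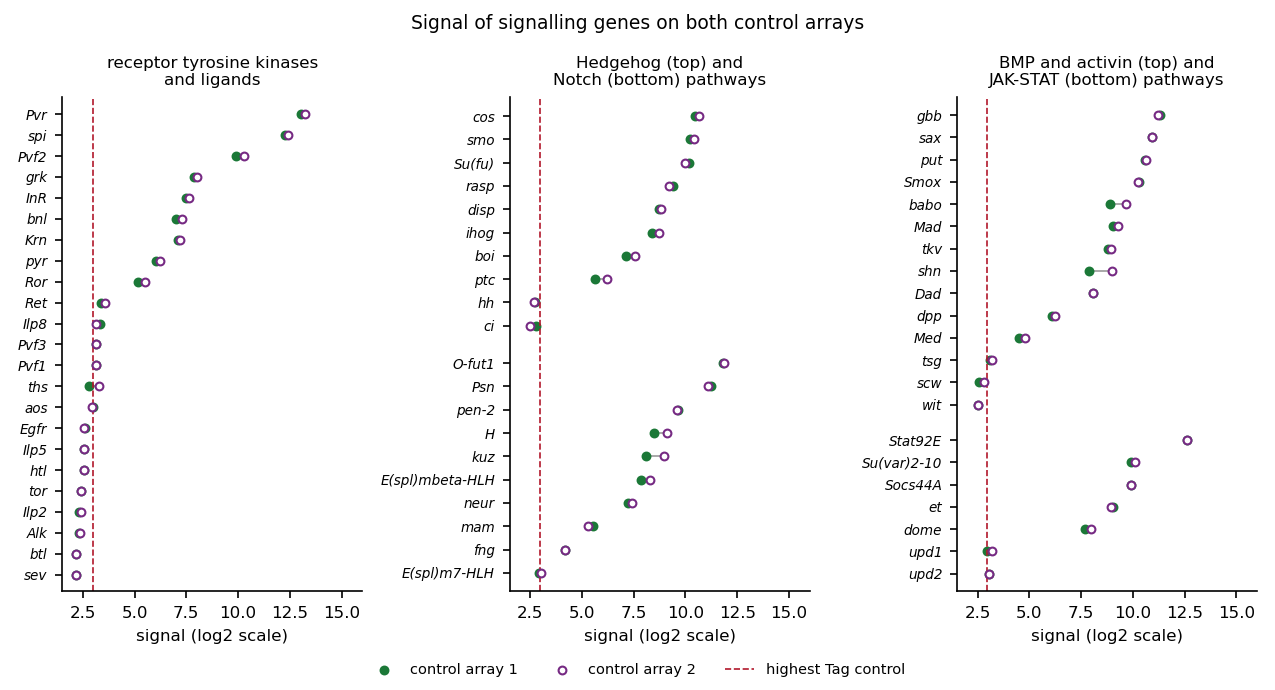
Signal on control array 1 (filled) and control array 2 (open) for genes of the receptor tyrosine kinase, Hedgehog, Notch, BMP and activin, and JAK-STAT pathways (horizontal axes, log2 scale; 1 row per gene). Pvr, smo, Stat92E and gbb exceed 10 on both arrays, while Egfr, hh, ci and wit lie under the dashed line of the highest Tag control.

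Hormone, clock and dosage genes varied. The ecdysone receptor gene EcR was dim at 5.23 and 5.50, and usp, the gene of its partner, was bright at 10.34 and 10.63. Targets of the hormone ranged widely: ftz-f1 averaged 9.55, br 5.92 on the brightest of 5 probe sets, and E23 and ImpE2 were at background. Among 8 circadian clock genes, 4 were moderate, a share near that of all genes. Clk itself had 2.50 and 2.84 and the photoreceptor gene cry 2.36 and 2.36, both at background. The partner of Clk, cyc, was moderate, averaging 8.02, and the repressor genes per (4.29 and 4.39) and tim (3.27 and 4.03) were dim. The other probe set of tim averaged 2.33. For dosage compensation, by which male flies raise output of the X chromosome, msl-2 had 8.86 and 9.02, mle 8.62 and 8.76, and mof 10.12 and 10.39. All 3 were moderate or bright, as were 10 of the 11 dosage and sex determination genes, against 47.7% of all genes. Of the sex determination genes, tra was moderate at 9.47 and 9.40. Sxl was moderate too, with 7.70 and 7.74 on the brightest of its 3 probe sets, while its dimmest averaged 3.47. The brightest probe set of dsx was dim at 3.12 and 3.23.

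The brightest genes were those of protein synthesis. Of the 25 genes with the highest mean, from 14.98 to 15.71, 18 encode cytosolic ribosomal proteins, led by RpL41 at 15.69 and 15.72 and RpL15 at 15.49 and 15.45. The other 7 were CG5953, Nplp2, tsr, eEF5, Fer1HCH, ATPsynbeta and Hsc70-4. Among these, tsr encodes the actin-severing protein cofilin, Fer1HCH the ferritin heavy chain and Hsc70-4 a constitutive Hsp70 chaperone. CG5953, named by number only, had 15.42 and 15.37 on one probe set and averaged 8.76 on its other. Of 41 cytosolic ribosomal protein genes 33 were bright, against 19.0% of all genes, with a median of 14.94. All 69 mitochondrial ribosomal protein genes were moderate or bright, and their median was 10.13, against 5.08 over all genes. All 29 aminoacyl-tRNA synthetase genes were moderate or bright too, against 47.7% of all genes. SerRS had 12.05 and 12.15, and the mitochondrial enzyme gene ValRS-m was lowest at 6.52 and 6.61. Translation factors followed the same pattern, with 14 of 17 genes bright. The exceptions were eIF4G2, moderate at 8.41 and 8.45, eEF1alpha2, dim at 3.86 and 4.75, and eIF4E3, at background with 2.76 and 2.94. The list held 23 translation factor genes, and those without a probe set of their own were not assessed.

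Among genes of protein folding and turnover, the chaperonin genes and most proteasome genes were bright. All 8 chaperonin subunit genes were bright, from CCT7 at 12.75 and 12.85 to CCT5 at 13.87 and 13.90. Of 40 proteasome genes 26 were bright, with a median of 12.02, and 10 were at background, against 19.0% bright and 32.5% at background over all genes. The share at background was thus near that of all genes. Several groups were added after their values had been seen, and they are described without further reading. All 6 Arp2/3 complex genes, all 5 prefoldin genes and all 3 annexin genes were bright, against 19.0% of all genes. So were all 5 translocon-associated and oligosaccharyl transferase genes. The dimmest of the 3 probe sets of the Arp2/3 gene Arpc3A averaged 2.42. All 22 Mediator subunit genes were moderate or bright, against 47.7% of all genes, from MED24 at 7.17 and 7.25 to MED30 at 12.06 and 12.17. Among 20 autophagy genes 19 were moderate or bright, and the exception, Atg8b at 2.21 and 2.24, is the relative of Atg8a, the gene of a ubiquitin-like autophagosome protein, which had 13.19 and 13.25.

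**Figure D4:**
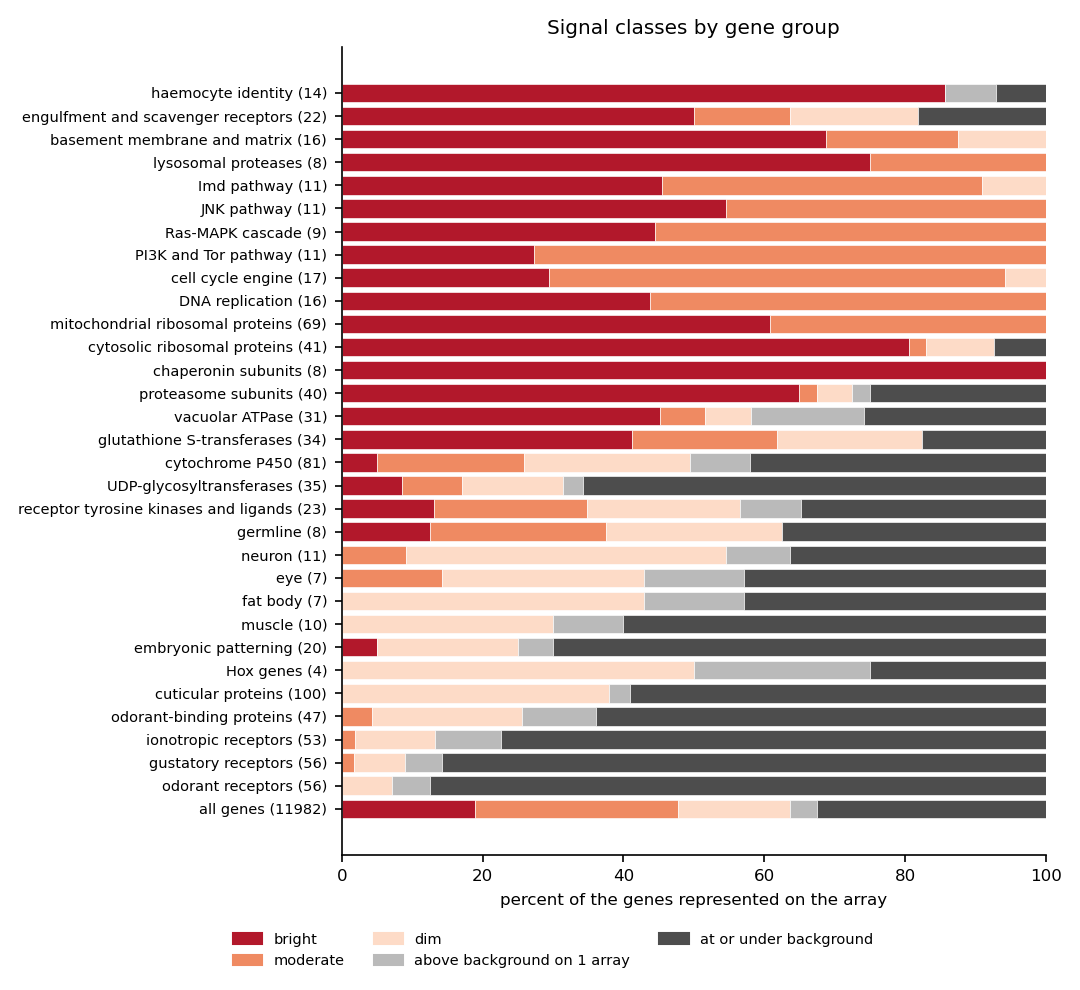
Percent of the genes of each group in the 5 signal classes (horizontal axis, 0 to 100%). Brackets give the number of genes with a probe set of their own, and all 11982 genes are in the bottom row. All 8 chaperonin genes are bright, 12 of 14 haemocyte identity genes are bright, and none of 56 odorant receptor genes is moderate or bright.

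Within complexes, extra copies of a subunit were mostly low. Symbol stems picked out 35 groups of copies (89 genes) among proteasome, vacuolar ATPase, respiratory chain, eIF3, ribosomal and mitochondrial import genes. In 32 of the 35 groups exactly 1 copy was bright, and in 29 of those every other copy was under 6. For proteasome subunits the low copies carry the T or R suffix given to variants that are known from the testis. Prosalpha6 averaged 12.83 and Prosalpha6T had 2.28 and 2.27, and Rpn13 averaged 11.93 and Rpn13R had 2.18 and 2.19. Among vacuolar ATPase genes, Vha16-1, for the membrane ring, had 14.21 and 14.17, whereas its 4 relatives averaged 3.66 or less. Examples from the respiratory chain were COX4 at 13.50 against COX4L at 2.52, ND-51 at 11.14 against ND-51L1 at 2.24, and ATPsynbeta at 15.00 against ATPsynbetaL at 3.66, each a mean of 2 arrays. The exceptions were few. A second copy was moderate for Rpt3R (8.45), VhaAC39-2 (7.92) and VhaM9.7-c (9.33), and Vha100-1 (12.09) and Vha100-2 (12.00) were both bright. RpLP0-like was bright at 11.24 beside RpLP0, and of the pair COX6AL and COX6AL2 neither was. Where copies are close in sequence a probe set may bind both transcripts, which was not tested, and no fold between copies is given.

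**Figure D5:**
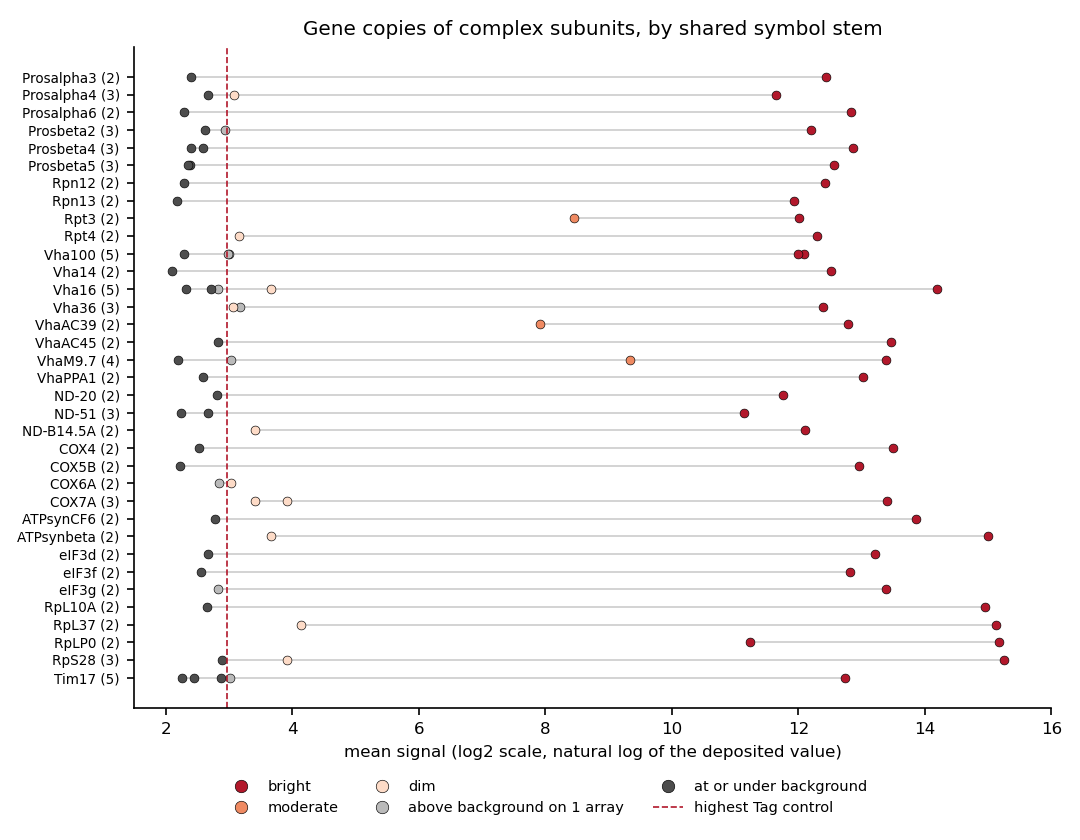
Mean signal over the 2 control arrays of each gene copy (points, coloured by signal class), 1 row per group of copies with the number of copies in brackets (horizontal axis, log2 scale; the dashed line marks the highest Tag control). In 32 of 35 rows a single point lies at 10 or more.

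Genes that shape and move the cell were among the bright ones. Of 13 actin regulators 11 were bright, against 19.0% of all genes, with tsr at 15.16 and 15.22, the gelsolin gene Gel at 13.76 and 13.83, the profilin gene chic at 12.97 and 13.13, and the moesin gene Moe at 13.66 and 14.06. The tropomyosin gene Tm2, of muscle, was dim at 3.79 and 3.81. Tubulin genes were in separate classes. Among the bright ones betaTub56D had 14.30 and 14.37, betaTub60D 13.37 and 13.55, and betaTub97EF averaged 10.63. The gamma tubulin gene gammaTub37C was moderate at 8.94 and 8.89. The dim ones were alphaTub85E, alphaTub67C, betaTub85D and alphaTub84D, averaging 4.92, 4.27, 3.56 and 3.40. The muscle actin gene Act88F was at background with 2.46 and 2.41. Of 16 listed actin and tubulin genes only 11 had a probe set of their own. The remaining ones were not assessed, so these levels do not stand for actin or alpha tubulin as a whole. The array's control probe set for the 3′ end of actin had 14.70 and 14.67. Of 18 integrin and adhesion genes 12 were moderate or bright, against 47.7% of all genes. The E-cadherin gene shg had 2.94 and 2.88 and was at background, whereas its intracellular partner alpha-Cat had 12.34 and 12.50. The apical polarity gene crb was dim at 2.98 and 3.27.

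Lysosomal genes were all above background: of 8, 6 were bright, against 19.0% of all genes, including the cathepsin genes CtsL1 at 14.85 and 14.97 and cathD at 13.42 and 13.53, and Lamp1 at 14.58 and 14.66. Imaginal disc growth factors, secreted chitinase-like proteins, were bright for 4 of 6 genes, against 19.0% of all genes. This family was added after its values had been seen. Idgf6 averaged 14.27, Idgf3 13.83, Idgf2 13.80 and Idgf1 13.62, whereas Idgf4 was dim at 4.65 and 4.64. The other probe set of Idgf3 averaged 8.85. For metals, the metallothionein gene MtnA had 14.83 and 14.59. Its relatives were lower, with MtnB averaging 4.27, MtnD at 5.04 and 4.96, and MtnC above the limit on 1 array only. The ferritin subunits also differed in class, since Fer1HCH had 15.10 and 14.94 and Fer2LCH, the light chain gene, had 6.64 and 6.78 on the only probe set assigned to it alone.

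Detoxification families were split. Of 34 glutathione S-transferase genes 14 were bright and 7 moderate (61.8% together, against 47.7% of all genes), and 6 were at background. GstE6 had 13.34 and 13.36 and GstD1 13.02 and 12.88. Cytochrome P450 genes were mostly low: 21 of 81 were moderate or bright (25.9%, against 47.7% of all genes). The 4 bright ones included Cyp9f2 at 11.79 and 11.81 and Cyp6a20 at 11.65 and 11.69. Of 35 UDP-glycosyltransferase genes 23 were at background and 3 were bright, against 32.5% and 19.0% of all genes. The brightest was Ugt317A1 at 11.97 and 11.95. Of 12 glycolysis genes 6 were bright and 3 moderate (75.0% together, against 47.7% of all genes). Eno had 13.27 and 13.19 and Gapdh1 13.11 and 12.95, the hexokinase gene Hex-A was moderate at 8.80 and 9.16, and Hex-t1, Hex-C and Pglym87, relatives of the hexokinase and phosphoglycerate mutase genes, were at background.

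Genes of proliferation were above background almost throughout. All 16 DNA replication genes and 16 of 17 cell cycle genes were moderate or bright, against 47.7% of all genes. PCNA, the sliding clamp gene, had 12.89 and 12.89, the ribonucleotide reductase gene RnrL 12.43 and 12.63, and Mcm6, of the replicative helicase, 11.32 and 11.38. The mitotic cyclin gene CycB had 12.08 and 12.07 and the S phase cyclin gene CycE averaged 9.14. CycJ, a cyclin gene of the female germline, was the dim exception at 3.15 and 3.65. Among 12 apoptosis genes, the initiator caspase gene Dronc had 10.62 and 10.49 and the inhibitor of apoptosis gene Diap2 11.39 and 11.43. Of killer genes with a probe set of their own, grim was dim at 3.26 and 3.27, and skl was at background with 2.56 and 2.68. The apoptosis list held 16 genes, and the remaining ones were not assessed. Among heat shock genes, the endoplasmic reticulum chaperone gene Hsc70-3 had 13.89 and 14.16, its relatives Hsc70-1 and Hsc70-2 were at background, and the inducible genes Hsp26, Hsp27 and Hsp68 were moderate, averaging 9.39, 9.77 and 9.34.

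Of 15 small RNA pathway genes 11 were moderate or bright, against 47.7% of all genes, and they included several known from the germline. The siRNA enzyme gene Dcr-2 had 10.33 and 10.28 and the microRNA processing gene drosha 8.65 and 8.91. Of the piRNA pathway, aub had 10.54 and 10.43, krimp 11.03 and 11.10, vret 10.20 and 10.12, armi 9.96 and 10.07, and zuc 8.45 and 8.70. All of these were moderate or bright. In contrast, piwi had 2.38 and 2.69 and the RING and Tudor protein gene qin 2.92 and 2.80, both at background, and AGO3, the partner of Aub in piRNA amplification, was dim at 4.25 and 4.78. Of 8 germline genes, aub and piwi included, 3 were moderate or bright and 3 at background, against 47.7% and 32.5% of all genes. The Tudor domain gene tud was moderate with a mean of 8.38. The RNA helicase gene vas, a defining germline marker, was at background with 2.60 and 2.56, osk, of posterior germ plasm, averaged 4.26, and bam, a differentiation factor, was moderate at 7.47 and 7.55.

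Markers of other tissues were mostly dim or at background, apart from the short glial list. None of 10 muscle genes, 7 fat body genes and 4 Hox genes was moderate or bright, against 47.7% of all genes. In muscle the titin-like gene sls averaged 3.37 and the projectin gene bt 2.63. Of 11 neuronal genes, the RNA-binding protein gene elav was moderate at 6.09 and 6.34, while ChAT, VGlut and Gad1, for making or packing transmitters, were at background. Of 20 embryonic patterning genes 14 were at background, against 32.5% of all genes, including hb, Kr, eve, en and twi. The exception was hry, a bHLH repressor of the hairy family, at 11.17 and 11.61. Glial genes were divided, with the receptor gene moody bright at 10.51 and 10.68 and the glial factor repo at background with 2.52 and 2.53. Testis genes were at background for 6 of 9, against 32.5% of all genes, and mia, a subunit of testis transcription complexes, had 8.85 and 8.85. Of 7 eye genes only trpl was moderate, averaging 6.61, and none was bright. Of 7 gut enzyme genes LManII was bright, averaging 10.78, and none was moderate.

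Large families for sensing and cuticle were almost wholly low. None of 56 odorant receptor genes, 100 cuticular protein genes and 24 Osiris genes was moderate or bright, against 47.7% of all genes. At background were 49 of the 56 odorant receptor genes, against 32.5% of all genes. Single members stood out from such families. Among 56 gustatory receptor genes only Gr61a, a sugar receptor gene, was moderate, with 7.46 and 7.36. Among 53 ionotropic receptor genes only Ir76a was, with 8.33 and 8.36. Of 9 nicotinic acetylcholine receptor subunit genes, nAChRbeta3 was bright at 12.28 and 12.56, and the remaining 8 averaged 4.41 or less. The sodium channel family gene ppk29 averaged 6.59, the highest of 27 pickpocket genes. All of these exceptions rest on 1 probe set each.

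By chromosome, the share of genes above background was 69.2% on X, 61.9% on 2L, 64.6% on 2R, 62.7% on 3L and 62.4% on 3R, and 70.8% of the 65 genes on chromosome 4. On X 299 of 1873 genes were bright, the lowest share of these, while on the other arms and chromosome 4 the share was 18.7% to 21.5%. None of 4 Y genes was above background on both arrays. Genes of one class tended to lie side by side in the reference annotation's order: the next gene was bright for 30.3% of bright genes, against 19.1% of all placed genes, and at background for 49.0% of background genes, against 32.3%. Genes of families often lie together, and family members are alike in sequence, so this is a description only. The longest stretch with no gene above background held 22 genes on 3R, among them Ir94e to Ir94h and the Ugt303B genes. The collagen IV genes vkg and Col4a1, which lie next to each other on 2L, formed part of a stretch of 5 bright genes with Rtnl1, SelT and CG31650.

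Genes known by a number only were dimmer as a class. Of 5209 such genes 34.9% were moderate or bright, against 58.2% of 6675 named genes. Long noncoding RNA genes were lower still, with 10 of 77 moderate or bright (13.0%), but lncRNA:CR32368 had 14.37 and 14.50.

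The 2 arrays were alike. Across genes, which are not independent replicates, Pearson's r was 0.998, the SD of the difference between arrays was 0.226 and 33 genes differed by over 2-fold. Array 2 was higher for 83.6% of moderate genes, by a median of 0.169, a shift small against the class widths. Among genes above background on both arrays, the difference was largest for l(2)efl, which encodes a small heat shock protein of the alpha-crystallin family, with 8.86 and 6.31. The phosphodiesterase gene dnc followed, with 5.13 and 6.87, and the export factor gene Nxf3 had 5.05 and 6.45. A further 7 of the 10 largest differences, among them knk at 5.03 and 3.60 and fend at 5.96 and 7.19, spanned a class limit or lay in the dim class. As a sign of RNA quality, the 5′ minus 3′ difference in signal of the control transcript eIF-4a was -1.22 on array 1 and -1.36 on array 2, and that of actin -0.29 and -0.25, so both arrays were alike. Of 1094 genes with more than 1 probe set, the median gap between the brightest and the dimmest was 1.22, and 101 had 1 probe set at background and another moderate or bright.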

How the data were processed

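The labels' protocols name TRIzol for extracting total RNA and biotin as the label for the Affymetrix arrays. The deposited values are linear intensities, one per probe set and array, made with GCRMA per the submitters' processing notes; version and settings are not given in the sources used here. GCRMA subtracts a background modelled from probe sequence and normalises between arrays, so low values are compressed towards a floor. Scanner files were not used here.

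The base of the back-transformation is an inference from the values. At face value their log2 reached 22.68 and 1460 and 1543 of 18952 probe sets exceeded a 16-bit scanner, whereas their natural log spanned 1.69 to 15.72. The bacterial hybridisation controls, set against relative concentrations known from general use of the mix, gave slopes of 0.98 and 0.99 when the natural log was read as log2, against 1.41 and 1.42 at face value.

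Of the probe sets, 183 were controls, 13647 carried 1 gene symbol, 402 several and 4720 none. Symbols were updated by Entrez ID for 13544. The brightest probe set by mean stood for each of 11982 genes. No test was run, because 1 group of 2 arrays has no contrast; the number of arrays limits the precision. Groups came from the sample titles. Chromosome arms and the order of genes came from the RefSeq gene table (assembly Release 6 plus ISO1 MT). No coordinates are printed, because no source names the build behind the array's annotation, and no sequences were used.

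The arrays, 45 gene lists, 30 families by symbol pattern and the rule for named genes were chosen with earlier results of these data known. Of the 632 listed genes, 477 could be matched to a probe set. A further 32 families (among them Arp2/3, prefoldin, annexin, Mediator, autophagy, Toll receptor, pickpocket and imaginal disc growth factor genes) were added after values were seen, some patterns were corrected then, and Nrt and fln were taken out of the Notch and actin lists as misplaced. The rule for named genes took in the 25 brightest and list members (all in lists of up to 16, otherwise up to 6 at each end). It also took in the 3 brightest and 3 dimmest of a family and the 10 largest differences between arrays. Not every gene the rule took in is named above, so small lists are not all shown whole. Members named beyond the rule were chosen after their values were seen. Among them were gene copies of complexes, Sr-C, Idgf and P450 relatives, the neighbouring genes and CR32368. The class assignment was tested on simulated data. Python 3.11.15, numpy 2.4.6, pandas 2.3.3 and matplotlib 3.10.9 were used. Alternatives were the background limit, probe set choice, scale, class limits, quantile normalisation and leaving out each array.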

Additional observations from a re-analysis of the deposited data

Results flagged for a closer look

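Signal also appeared in probe sets that enter no gene result. Of 4720 probe sets with no gene symbol, 339 were bright, and the highest of them had 15.42 and 15.46 on the 2 control arrays. Of 402 probe sets with several gene symbols, 61 were bright, and the highest averaged 14.17. Which genes these probe sets report was not tested.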

How the results depend on the processing

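The count of bright genes was 2272 and became 3523 with class limits of 5 and 9, 1254 with limits of 7 and 11, and 5361 when log2 of the deposited value was used with the limits kept. That reading, which multiplies every level by a constant and so shifts genes upward past fixed limits, left 997 moderate and 1270 dim genes, against 3445 and 1911. Dim genes numbered 694 with the Tag limit raised by 1 and 906 with the highest bacterial control as the limit, an alternative chosen after seeing the data. Bright and moderate counts did not move with either limit. The counts above and at background stayed within 1.5 times of 7628 and 3895 under every alternative run, from 5994 to 7898 and from 3663 to 5399. Both low ends came from keeping only probe sets of the plain _at name type, which left 10075 genes, of which 1560 were bright. Over all 11982 genes the lowest count above background was 6411, with the raised Tag limit. Leaving out each array gave 7817 to 7898 genes above background, 4084 to 4165 at it, 2204 to 2368 bright, 3381 to 3466 moderate and 2068 to 2228 dim genes. Of 107 gene groups, the share above background moved for 31 with the raised Tag limit, 28 with the bacterial limit and 7 with the dimmest probe set. For a single gene's level, 2 arrays give no usable tolerance, so no statement on its stability is made; without array 1 or array 2 it is simply the other array's value. The planned search of promoters for motifs was not run, since promoter sequences were not used here. No paired analysis was possible because only 1 group was described and no result comes from a test. Dim levels are limited by signal near the background.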
